A study of Caenorhabditis briggsae with 9 samples.

Results

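Loss of either of 2 inhibitors of vulval induction in the nematode Caenorhabditis briggsae was compared with the wild type by setting both mutant strains, averaged, against the isolate AF16. All 9 libraries of the series entered the comparison: 3 from AF16, 3 from animals carrying allele gu163 of Cbr-spr-4 (also named Cbr-ivp-1) and 3 from animals carrying allele gu167 of Cbr-htz-1 (also named Cbr-ivp-2). RNA came from whole animals synchronised at the L3 larval stage, kept at 20 degrees on NGM plates and collected before division of the vulval precursors began, as judged by Nomarski microscopy. Ribosomal RNA was depleted, and per the labels the replicates were prepared independently. Each gene is represented by a single allele, and the sources used here give neither the kind of lesion nor any outcrossing. The pooled value of a gene is the mean of its 2 strain values minus AF16, on the log2 scale, so each mutant strain has the same weight. The same 3 AF16 libraries stand behind both strains, so an unusual AF16 value moves both strains together.

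In nematodes the vulva forms when the anchor cell secretes LIN-3, an epidermal growth factor, which activates the receptor LET-23 and a Ras cascade in nearby precursor cells, together with Notch and Wnt signals. In C. elegans, the zinc-finger gene spr-4 was identified because its loss suppresses presenilin mutations, and htz-1 encodes the histone variant H2A.Z. The L3 larva also holds a growing gonad whose germ cells divide by mitosis and begin to enter meiosis. In bulk RNA from whole animals, a change in the number of cells of a type and a change in RNA per cell cannot be told apart.

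Libraries held 8294524 to 14095189 counts over 22922 gene identifiers, and 12507 genes passed the filter on low counts. Of these, 4924 (39.4%) carried a symbol, and the others are given by their locus tag. The first principal component (40.9% of the variance) set the gu163 libraries apart from the other libraries, and on the second (26.6%) AF16 replicate 3 and gu167 replicate 3 lay at opposite ends. Those 2 libraries also had the lowest and the highest normalization factors, 0.746 and 1.20. Levels are given in CPM, read counts scaled to a common library size. A transcript level does not check the labels of these strains: Cbr-htz-1 was at 60.6, 59.9 and 78.7 CPM in AF16 replicates 1 to 3, 63.8, 49.7 and 53.2 in gu163 and 61, 62.8 and 57.5 in gu167, and these groups overlapped. Its pooled log2 fold change was −0.20 ± 0.13 (SE), with an adjusted p of 0.492 and an exact two-sided permutation p of 0.202 over 6 against 3 libraries.

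More genes were higher than lower in the pooled mutants. At an adjusted p under 0.05, 402 genes (3.21% of those tested) were called higher and 35 (0.280%) lower, 3.49% in either direction. At an unadjusted p under 0.05, 1216 genes were higher and 757 lower, and the median pooled log2 fold change over all genes was −0.04. Without AF16 replicate 1 there were 261 genes called higher, without AF16 replicate 2 there were 263, and with AF16 replicate 3 and gu167 replicate 3 both left out there were 243, of which 228 were among the 402.

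The genes called higher were mostly scarce in the wild type. Their median level was 1.45 CPM in AF16 and 8.14 CPM in the mutants, against a median AF16 level of 17.1 CPM over all genes tested. AF16 averaged under 1 CPM in 169 of the 402 (42%), as it did in 953 of the 12507 genes tested (7.62%). Such genes passed the filter on low counts through the mutant libraries, so counts over gene lists below are descriptions. The median log2 fold change of the 402 was 2.01, with 2.25 in gu163 and 1.67 in gu167, and 202 genes were at least 4-fold higher. For 3 of them AF16 held no counts, and the median stayed at 2.01 with these set at a bound of 3 counts over the AF16 libraries. All 6 mutant libraries lay above all 3 AF16 libraries in 346 of the 402, and in 632 (5.05%) of all genes tested. Some genes named below were chosen partly for this lack of overlap, so for them it is not a separate result. Of the 35 genes called lower, 12 had all 6 mutant libraries below AF16, as did 139 (1.11%) of all genes tested.

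A direct test between the mutants, which uses no AF16 library, called 1683 genes (13.5%). Among the 402 genes called higher it called 130 (32.3%): 102 were farther from AF16 in gu163 and 28 in gu167. The other 272 were not called different, which does not show that the strains are alike. Both strains differed from AF16 in the same direction in 390 of the 402. These genes were picked on the average of the same strain values, which share the AF16 libraries, so this is not separate support. Taken singly, gu163 had 795 genes higher (6.36%) and 368 lower (2.94%) than AF16, and gu167 had 246 higher (1.97%) and 16 lower (0.128%). A stricter rule, with a test in each strain and the larger p of the pair, called 153 genes higher and 0 lower in edgeR, against 528 and 77 at an unadjusted p under 0.05. For the pooled value, DESeq2 called the same 35 genes lower and 91 others.

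**Figure D1:**
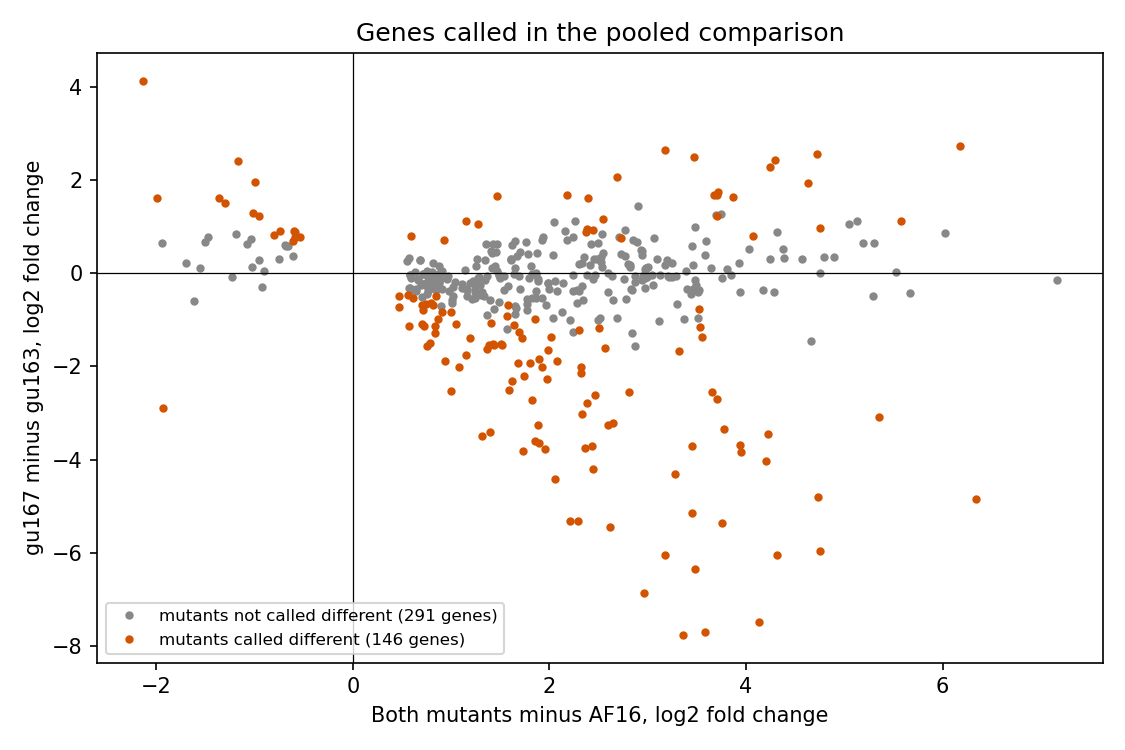
Each point is a gene called in the pooled comparison, with the pooled log2 fold change against AF16 on the x axis and the log2 difference gu167 minus gu163 on the y axis. Orange points are genes that the direct test between the mutants called. Among the 402 genes on the right, 102 orange points lie farther from AF16 in gu163 and 28 in gu167.

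Cbr-lin-3, the inductive ligand, rose in both mutants from a low level. It was at 0.705, 0.261 and 0.755 CPM in AF16 replicates 1 to 3, 2.73, 3.81 and 2.90 in gu163 and 2.09, 2.90 and 2.31 in gu167. All 6 mutant libraries lay above all 3 AF16 libraries, which held 16 reads of this gene in all (log2 fold change 2.30 ± 0.37 (SE), adjusted p = 0.0059). The exact two-sided permutation test gave p = 0.0119, the smallest that 84 arrangements allow. The strain values were 2.49 in gu163 and 2.12 in gu167, and the direct difference was −0.37 ± 0.33 (SE), adjusted p = 0.502. The call held in the 18 alternative fits at the 0.05 threshold, and would not be made at 0.0005.

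Cbr-spr-4 also rose. It was at 88, 118 and 120.0 CPM in AF16 replicates 1 to 3, 251, 207 and 249 in gu163 and 152, 155.8 and 144 in gu167, and each mutant library exceeded each AF16 library (log2 fold change 0.79 ± 0.14 (SE), adjusted p = 0.0126; exact permutation p = 0.0238). The gu163 libraries, from the strain with the lesion in this gene, were the highest, and the direct test found gu167 lower than gu163 (−0.65 ± 0.16 (SE), adjusted p = 0.0264). Taken singly, gu163 was called (log2 fold change 1.12, adjusted p = 0.00232) and gu167 was not (0.47, adjusted p = 0.201). Without AF16 replicate 1 the adjusted p was 0.0574. With the 6 mutants as 1 group it was 0.142, and the permutation test likewise took them as 1 group.

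Few other genes of the vulval pathways passed the test. Cbr-lin-3 was 1 of 35 tested members of the EGF and Ras list (2.86%) to be called, and the median of that list was −0.13. Over all genes tested, 3.21% were called higher. DESeq2 also called 1 member of the EGF and Ras list lower. In the Notch list 2 of 23 tested members (8.70%) were called higher. They were Cbr-glp-1, a Notch receptor that keeps germ cells in mitosis in C. elegans, at 7.55 CPM in AF16, 21.3 in gu163 and 14.5 in gu167 (log2 fold change 1.21 ± 0.16 (SE), adjusted p = 0.0019), and Cbr-apx-1, a Notch ligand, at 0.680 CPM in AF16, 3.10 in gu163 and 1.37 in gu167 (log2 fold change 1.57 ± 0.37 (SE), adjusted p = 0.0487). In 14 of the 18 alternative fits, 8 of them with 1 library left out, the Notch list had 1 called member. No member was called among 30 in the Wnt and vulval Hox list, 27 in the synMuv, DREAM and NuRD list (synMuv genes repress lin-3 in C. elegans) or 16 in the list for H2A.Z deposition and acetylation. Their medians were −0.05, 0.10 and −0.03. At an unadjusted p under 0.05 these lists held 3 higher and 4 lower, 3 higher and 0 lower, and 1 higher and 1 lower members, and DESeq2 and limma-voom called none.

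**Figure D2:**
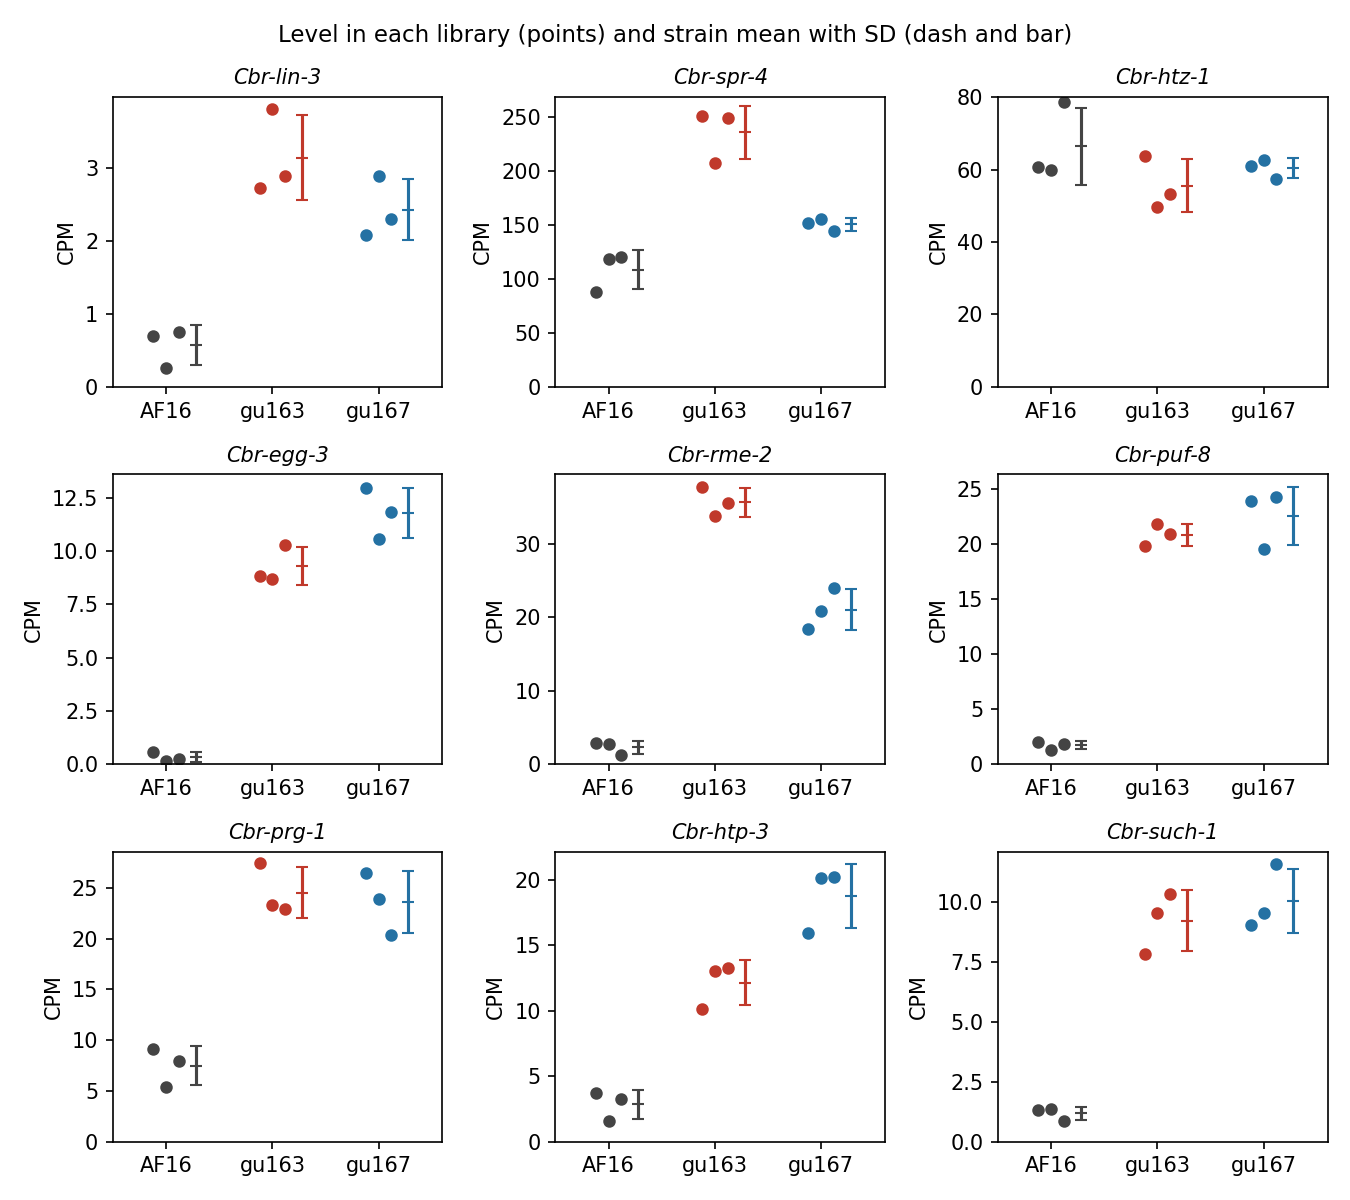
Level in CPM of 9 genes in each library (points, replicates 1 to 3 from left to right) with the strain mean and SD beside them. Cbr-lin-3 lies between 0.261 and 0.755 CPM in AF16 and between 2.09 and 3.81 in the mutants, and Cbr-htz-1 is the only panel in which the mutants overlap AF16.

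A number of genes of oocytes and of the eggshell rose in the pooled mutants. Of 22 listed genes with counts, 19 were tested, and 8 (42.1%) were called higher and 0 lower, against 3.21% of all genes. The list median was 1.06. Cbr-egg-3, which in C. elegans encodes a phosphatase-like protein of egg activation, was at 0.604, 0.174 and 0.252 CPM in AF16 replicates 1 to 3, 8.85, 8.70 and 10.3 in gu163 and 12.9, 10.6 and 11.9 in gu167. Every mutant library lay far above every AF16 library (log2 fold change 4.89 ± 0.33 (SE), adjusted p = 2.86e-05). Its relative Cbr-egg-4 rose too (log2 fold change 2.83 ± 0.24 (SE), adjusted p = 1.20e-04).

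Cbr-cyp-31A3 encodes a cytochrome P450 needed for the lipid layer of the C. elegans eggshell. It was at 0.504, 0.608 and 0.252 CPM in AF16 replicates 1 to 3, 10.4, 9.44 and 11 in gu163 and 12.1, 12.1 and 14.1 in gu167, with no overlap between the mutants and AF16 (log2 fold change 4.57 ± 0.27 (SE), adjusted p = 1.61e-05). The yolk receptor gene Cbr-rme-2 was at 2.92, 2.78 and 1.26 CPM in AF16 replicates 1 to 3, 37.6, 33.7 and 35.5 in gu163 and 18.4, 20.8 and 23.9 in gu167. All mutant libraries were far above AF16, and the gu163 libraries lay above the gu167 libraries (log2 fold change 3.52 ± 0.25 (SE), adjusted p = 3.24e-05; direct difference −0.76 ± 0.22 (SE), adjusted p = 0.0457). Cbr-cpg-1, which encodes a chondroitin proteoglycan of the eggshell, and Cbr-gna-2, which makes a sugar precursor of eggshell chitin, had pooled log2 fold changes of 2.24 (adjusted p = 0.00312) and 1.40 (adjusted p = 0.00476).

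The related proteoglycan gene Cbr-cpg-4 was higher in gu167 than in gu163. It was at 1.11, 0.434 and 0 CPM in AF16 replicates 1 to 3, 4.17, 3.89 and 3.70 in gu163 and 11.4, 14.4 and 13.7 in gu167, and the strains did not overlap each other or AF16 (log2 fold change 3.71 ± 0.49 (SE), adjusted p = 0.00186; direct difference 1.75 ± 0.41 (SE), adjusted p = 0.0206). The 8 called members ranged from 1.40 to 4.89 on the log2 scale, each was called in both strains taken singly, and all had the mutants above AF16 without overlap. The summed level of the list did overlap, at 379 to 440.4 CPM in AF16, 427 to 572 in gu163 and 413 to 432 in gu167. That sum also covers the 11 members that were not called. A pooled value above 0 was found in 14 of the 19 tested members. The number called was 8 or 9 in the 18 alternative fits at the 0.05 threshold, and 4 at a threshold of 0.0005.

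RNA-binding and P granule genes of the germline included 11 called higher of 43 tested (25.6%), of 46 with counts, and 0 lower, with a list median of 0.25. The summed level of the list overlapped, at 2186 to 2900 CPM in AF16, 2487 to 3030 in gu163 and 2187 to 2732 in gu167. Cbr-puf-8, a Pumilio-family regulator of germ cell fate in C. elegans, was at 2.01, 1.30 and 1.89 CPM in AF16 replicates 1 to 3, 19.8, 21.8 and 20.9 in gu163 and 23.9, 19.5 and 24.2 in gu167. The mutant and AF16 libraries were far apart (log2 fold change 3.65 ± 0.20 (SE), adjusted p = 1.18e-05; direct difference 0.11 ± 0.17 (SE), adjusted p = 0.727). Cbr-cpb-3, a CPEB-type RNA-binding protein, was at 0.705, 0.521 and 0.755 CPM in AF16 replicates 1 to 3, 6.38, 5.38 and 4.75 in gu163 and 3.76, 3.46 and 4.02 in gu167, again without overlap (log2 fold change 2.78 ± 0.27 (SE), adjusted p = 2.40e-04).

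Cbr-gld-3, which encodes a Bicaudal-C-like regulator of sperm and oocyte fate, was at 1.41, 1.13 and 2.39 CPM in AF16 replicates 1 to 3, 7.94, 9.19 and 9.58 in gu163 and 9.85, 10.1 and 9.44 in gu167 (log2 fold change 2.54 ± 0.25 (SE), adjusted p = 2.96e-04). The mutant libraries did not overlap AF16. The other called members were the translational repressor gene Cbr-gld-1, the CPEB gene Cbr-cpb-1, the P granule helicase gene Cbr-glh-4, the Pumilio gene Cbr-puf-11, which the oocyte list also holds, and the CCCH zinc-finger genes Cbr-mex-1, Cbr-mex-5, Cbr-oma-2 and Cbr-pos-1. Their pooled log2 fold changes ran from 0.81 for Cbr-glh-4 to 4.25 for Cbr-puf-11, and the direct test called none of the 11 different between the mutants. The number called was 7 with a minimum count of 30, at which fewer genes were tested.

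Meiotic chromosome genes had the highest share called of all lists. Of 31 tested genes 15 (48.4%) were called higher and 0 lower, 30 of 31 had a pooled value above 0, and the median was 1.07. Their summed level was 309.8 to 367 CPM in AF16, 460.4 to 509.7 in gu163 and 474 to 544 in gu167, with no overlap. Genes for the chromosome axis included Cbr-him-3, at 2.12, 1.74 and 1.51 CPM in AF16 replicates 1 to 3, 8.59, 11.3 and 9.34 in gu163 and 7.51, 8.44 and 6.43 in gu167. Its mutant libraries all lay well above its AF16 libraries (log2 fold change 2.24 ± 0.22 (SE), adjusted p = 2.69e-04).

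Cbr-htp-3, another HORMA-domain axis protein, was at 3.73, 1.56 and 3.27 CPM in AF16 replicates 1 to 3, 10.2, 13 and 13.3 in gu163 and 15.9, 20.1 and 20.2 in gu167. The groups did not overlap, and gu167 libraries were the highest (log2 fold change 2.42 ± 0.27 (SE), adjusted p = 6.89e-04; direct difference 0.62 ± 0.26 (SE), adjusted p = 0.149). The cohesin kleisin gene Cbr-coh-4 was at 0.907, 1.30 and 1.13 CPM in AF16 replicates 1 to 3, 6.90, 4.47 and 5.07 in gu163 and 3.92, 4.03 and 4.52 in gu167, without overlap (log2 fold change 2.08 ± 0.26 (SE), adjusted p = 0.00132).

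Genes for the central region of the synaptonemal complex, which holds paired chromosomes together, rose with them. Cbr-syp-1 was at 0.705, 0.261 and 0 CPM in AF16 replicates 1 to 3, 2.47, 1.99 and 3.14 in gu163 and 7.18, 8.94 and 8.14 in gu167. Its gu167 libraries were above its gu163 libraries, which were above AF16 (log2 fold change 3.71 ± 0.51 (SE), adjusted p = 0.00225; direct difference 1.67 ± 0.40 (SE), adjusted p = 0.0238). Pooled log2 fold changes were 2.16 for Cbr-syp-2 and 2.80 for Cbr-syp-4. For genes of meiotic breaks and crossovers they were 2.30 for Cbr-spo-11 (adjusted p = 0.0478), 2.42 for Cbr-msh-5 and 2.54 for Cbr-him-14. The remaining called members were Cbr-rec-8, Cbr-htp-2, Cbr-sun-1, Cbr-brd-1, Cbr-rad-54 and Cbr-rad-50, at 2.76, 2.52, 1.96, 1.47, 1.34 and 0.76. Across the alternative fits 11 to 18 members were called, and at a threshold of 0.0005 it was 1.

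Sperm genes were mostly below the filter at this stage: of 26 listed genes with counts, 9 were tested, and 4 (44.4%) were called higher and 0 lower. Cbr-spe-6, a casein kinase of sperm development in C. elegans, was at 1.91, 0.782 and 0.755 CPM in AF16 replicates 1 to 3, 6.90, 7.29 and 7.89 in gu163 and 6.09, 6.74 and 8.54 in gu167, without overlap with AF16 and with overlapping ranges in the mutant strains (log2 fold change 2.63 ± 0.32 (SE), adjusted p = 0.00108). Cbr-spe-41, which encodes a calcium channel of sperm, was at 0.201, 0.0869 and 0 CPM in AF16 replicates 1 to 3, 4.95, 7.70 and 5.80 in gu163 and 0.417, 0.567 and 0.402 in gu167. It was high in gu163 alone, and AF16 held 3 reads of it in all. The ratio to AF16 was 61.8 in gu163 (95% counting interval 20.8 to 302) and 4.66 in gu167 (1.36 to 24.7).

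Cbr-fer-1, a ferlin needed for sperm membrane fusion, had the opposite order. It was at 0, 0.0869 and 0.126 CPM in AF16 replicates 1 to 3, 0.391, 0.580 and 0.967 in gu163 and 2.92, 2.83 and 4.22 in gu167, with 2 reads in AF16, and the ratios were 10.05 in gu163 (2.47 to 88.1) and 47.4 in gu167 (12.8 to 396). These intervals are exact binomial and cover counting error only. The direct test found that both genes differed between the mutants, by −3.68 ± 0.39 (SE), adjusted p = 7.80e-04 for Cbr-spe-41 and by 2.28 ± 0.42 (SE), adjusted p = 0.00865 for Cbr-fer-1. The fourth gene, Cbr-snf-10, which encodes a transporter of sperm activation, had a pooled log2 fold change of 3.48 (adjusted p = 0.0149). With the 6 mutants as 1 group the sperm list had 2 called members, and at a threshold of 0.0005 it had 0. In the former fit the adjusted p was 0.209 for Cbr-spe-41 and 0.0788 for Cbr-fer-1. Cbr-spe-41 was not called in gu167 taken singly (adjusted p = 0.166).

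Argonaute and small RNA genes, many of which act in the germline, had 7 called higher of 33 tested (21.2%), 0 lower and a median of 0.17. Cbr-prg-1, the Piwi protein that binds piRNAs, was at 9.17, 5.39 and 7.93 CPM in AF16 replicates 1 to 3, 27.5, 23.3 and 22.9 in gu163 and 26.5, 23.9 and 20.4 in gu167. The lowest mutant library was above the highest AF16 library by more than 2-fold (log2 fold change 1.69 ± 0.19 (SE), adjusted p = 8.31e-04; direct difference −0.05 ± 0.20 (SE), adjusted p = 0.898). Cbr-mut-2, a nucleotidyltransferase of RNA interference, was at 0.403, 1.30 and 0.629 CPM in AF16 replicates 1 to 3, 5.86, 8.20 and 8.86 in gu163 and 5.18, 9.01 and 7.84 in gu167, without overlap (log2 fold change 3.21 ± 0.38 (SE), adjusted p = 9.51e-04). Cbr-sago-2, a secondary Argonaute, was at 34.5, 32.4 and 31.6 CPM in AF16 replicates 1 to 3, 90.4, 85.1 and 89.4 in gu163 and 73.8, 74.4 and 73 in gu167, and its replicates were close in every strain (log2 fold change 1.30 ± 0.10 (SE), adjusted p = 8.29e-05).

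Among the RNA-dependent RNA polymerases, Cbr-ego-1 (1.37, adjusted p = 0.0165) and Cbr-rrf-3 (0.72, adjusted p = 0.0206) rose. So did Cbr-sid-1, a double-stranded RNA channel (0.81, adjusted p = 0.0151). The seventh, the uridylyltransferase gene Cbr-cid-1, was at 47.8 CPM in AF16, 105 in gu163 and 48 in gu167 and met the pooled threshold through gu163 alone. Without AF16 replicate 1 the list had 3 called members, and with AF16 replicate 3 and gu167 replicate 3 both left out it had 4.

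Mitosis genes moved by smaller steps. Of 71 tested, 11 (15.5%) were called higher and 0 lower, 58 of 71 had a value above 0, and the median was 0.29. Their summed level was 2725 to 3013 CPM in AF16, 3686 to 3741 in gu163 and 3214 to 3388 in gu167, without overlap. All 11 called genes were called in gu163 taken singly, and 5 of them in gu167. With the 6 mutants as 1 group the list had 5 called members, and at a threshold of 0.0005 it had 0. Cbr-sep-1, the separase that releases sister chromatids, was at 12.2, 13.6 and 10.1 CPM in AF16 replicates 1 to 3, 30.9, 34 and 30.9 in gu163 and 27.8, 24.1 and 23.8 in gu167 (log2 fold change 1.24 ± 0.14 (SE), adjusted p = 8.09e-04). Its mutant libraries did not overlap AF16. Cbr-rod-1, a kinetochore checkpoint protein, was at 101, 92.3 and 84.7 CPM in AF16 replicates 1 to 3, 222, 274 and 240.1 in gu163 and 154, 186 and 183 in gu167 (log2 fold change 1.16 ± 0.14 (SE), adjusted p = 9.51e-04). Its groups did not overlap.

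The formin gene Cbr-cyk-1 was at 30.1, 24.1 and 30.6 CPM in AF16 replicates 1 to 3, 62.4, 80.5 and 68.9 in gu163 and 36.8, 41.8 and 40.6 in gu167. It was not called in gu167 taken singly (adjusted p = 0.154). The gu167 libraries lay between AF16 and gu163 (log2 fold change 0.91 ± 0.14 (SE), adjusted p = 0.00379; direct difference −0.83 ± 0.15 (SE), adjusted p = 0.0084). The other called members act at the kinetochore (Cbr-zwl-1, Cbr-hcp-4), at the centrosome (Cbr-spd-2, Cbr-spd-5, Cbr-sas-4), in condensin (Cbr-hcp-6), in the chromosomal passenger complex (Cbr-icp-1) or as a spindle motor (Cbr-bmk-1), and were between 0.58 and 0.96 on the log2 scale.

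In the DNA replication and cell cycle list 4 of 50 tested genes (8%) were called higher and 0 lower, with a list median of 0.19. The summed level of this list was not raised and overlapped, at 6253 to 9774 CPM in AF16, 5378 to 7011 in gu163 and 5103 to 6965 in gu167. In the oocyte, meiotic, sperm, small RNA, mitosis and replication lists no gene was lower at an unadjusted p under 0.05 either, the germline list had 1, and neither DESeq2 nor limma-voom called a member of these lists lower. Cbr-orc-3, of the origin recognition complex, was at 12.1, 11.8 and 11 CPM in AF16 replicates 1 to 3, 22.1, 27.4 and 24.1 in gu163 and 19.8, 19.5 and 19 in gu167, with no overlap (log2 fold change 0.91 ± 0.13 (SE), adjusted p = 0.00312). Cbr-cdc-25.1, a phosphatase that activates cyclin-dependent kinases in C. elegans germ cells, was at 2.82, 1.39 and 1.38 CPM in AF16 replicates 1 to 3, 6.77, 6.05 and 5.64 in gu163 and 5.68, 5.10 and 4.52 in gu167 (log2 fold change 1.58 ± 0.28 (SE), adjusted p = 0.0102). Cbr-cdk-2, the kinase of S phase entry, was at 4.23, 3.56 and 4.41 CPM in AF16 replicates 1 to 3, 7.81, 9.61 and 10.9 in gu163 and 7.85, 7.31 and 9.14 in gu167 (log2 fold change 1.11 ± 0.19 (SE), adjusted p = 0.00993). In both genes each mutant library exceeded each AF16 library, and without AF16 replicate 2 their adjusted p was 0.0517 for Cbr-cdc-25.1 and 0.0559 for Cbr-cdk-2. The fourth was the helicase subunit gene Cbr-mcm-6 (0.47, adjusted p = 0.043). The list is sensitive to the libraries: without AF16 replicate 2 it had 1 called member, and with upper-quartile normalization it had 7.

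**Figure D3:**
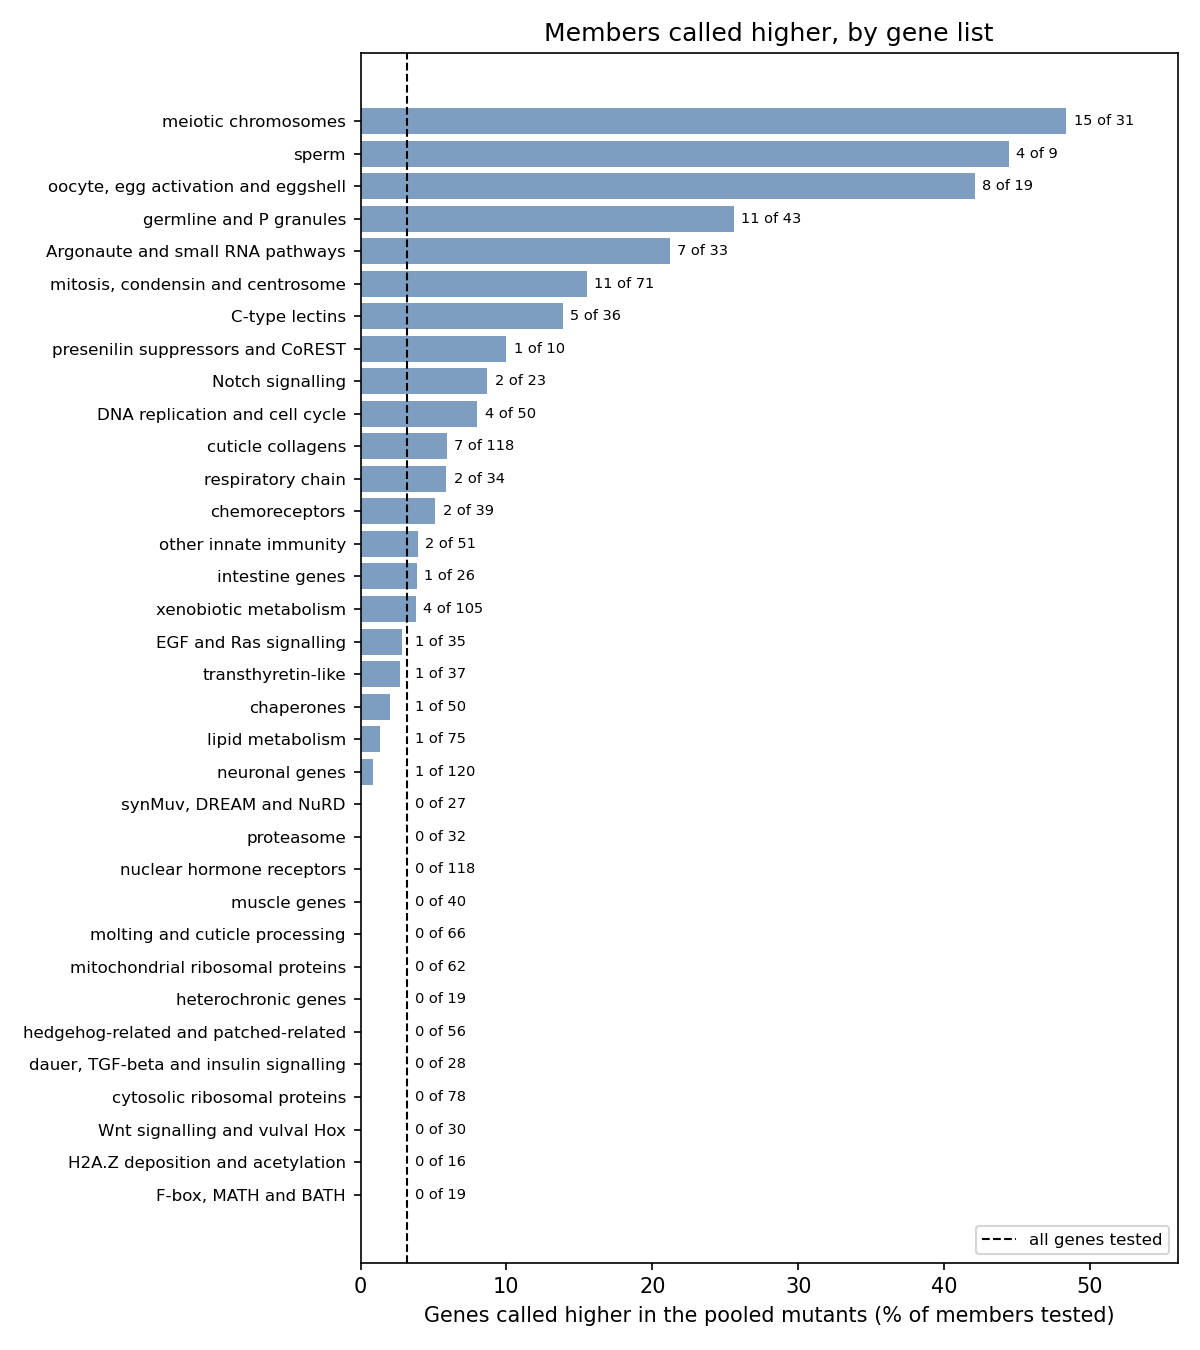
Share of the tested members of each gene list called higher in the pooled mutants, with the number called of the number tested; lists with fewer than 9 tested members are left out. The dashed line is the share over all genes tested, 3.21%; meiotic, sperm and oocyte lists lie between 42.1% and 48.4%.

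Several of the strongest shared rises were in genes outside these lists. Cbr-duo-2 was at 1.21, 1.04 and 0.755 CPM in AF16 replicates 1 to 3, 11.8, 12.3 and 14.7 in gu163 and 19.5, 24.8 and 24 in gu167, with gu167 above gu163 (log2 fold change 4.07 ± 0.22 (SE), adjusted p = 1.18e-05; direct difference 0.81 ± 0.18 (SE), adjusted p = 0.0192). Cbr-vha-18, a subunit of the vacuolar proton pump, was at 1.01, 0.782 and 1.01 CPM in AF16 replicates 1 to 3, 10.3, 8.70 and 9.10 in gu163 and 7.60, 9.95 and 9.24 in gu167, with overlapping ranges in the mutant strains (log2 fold change 3.29 ± 0.23 (SE), adjusted p = 3.24e-05). Cbr-inx-22, an innexin that joins oocytes to the gonadal sheath in C. elegans, was at 2.22, 1.30 and 1.26 CPM in AF16 replicates 1 to 3, 11.2, 14.3 and 17.1 in gu163 and 10.6, 15.1 and 15.9 in gu167 (log2 fold change 3.13 ± 0.28 (SE), adjusted p = 1.43e-04). All 3 genes had the mutants above AF16 without overlap, which was a condition for naming them.

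Cbr-such-1 encodes a subunit of the anaphase-promoting complex, which targets securin and cyclins for destruction. It was at 1.31, 1.39 and 0.881 CPM in AF16 replicates 1 to 3, 7.81, 9.53 and 10.3 in gu163 and 9.02, 9.51 and 11.6 in gu167, and every mutant library lay above every AF16 library (log2 fold change 2.98 ± 0.24 (SE), adjusted p = 8.29e-05). The respiratory chain list had a median of −0.37, and 2 of its 34 tested genes (5.88%, against 3.21% of all genes tested) were called higher. Cbr-nduf-2.2 of complex I was at 13.1 CPM in AF16, 43 in gu163 and 33.4 in gu167 (log2 fold change 1.54 ± 0.18 (SE), adjusted p = 8.31e-04). Cbr-sdha-2 of complex II was at 7.66 CPM in AF16, 16.8 in gu163 and 14.7 in gu167 (log2 fold change 1.04 ± 0.18 (SE), adjusted p = 0.0104). Without AF16 replicate 2 the respiratory chain list had 1 called member. In the xenobiotic list, 4 of 105 (3.81%) were called higher, a share near that of all genes, and 2 without AF16 replicate 1, without AF16 replicate 2 or with the replicate block. They were Cbr-cyp-31A3, Cbr-gst-3, Cbr-gst-20 and the glucuronosyltransferase gene Cbr-ugt-63, which was at 8.86, 16.2 and 16.2 CPM in AF16 replicates 1 to 3, 31, 41.3 and 45.5 in gu163 and 37.9, 38.3 and 38 in gu167, without overlap (log2 fold change 1.49 ± 0.21 (SE), adjusted p = 0.00312).

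Of the 402 genes 242 had no symbol, among them those with the largest rise in the weaker strain among genes of at least 5 CPM in the mutants and with no overlap with AF16. CBG08354 was at 0.201, 0.434 and 1.38 CPM in AF16 replicates 1 to 3, 32.8, 39.4 and 40.4 in gu163 and 23.2, 30.6 and 29.7 in gu167 (log2 fold change 5.67 ± 0.39 (SE), adjusted p = 3.05e-05). CBG26866 was at 0.302, 0.348 and 0.504 CPM in AF16 replicates 1 to 3, 17.4, 18.8 and 17.4 in gu163 and 12.7, 11.4 and 14.5 in gu167 (log2 fold change 5.29 ± 0.24 (SE), adjusted p = 7.58e-06). In both genes all mutant libraries were far above AF16. CBG02852 held 2 reads in AF16 and was at 0.101, 0 and 0.126 CPM in AF16 replicates 1 to 3, 4.17, 3.40 and 4.03 in gu163 and 6.34, 7.62 and 6.93 in gu167; the ratios were 56.2 in gu163 (95% counting interval 15.2 to 469) and 103 in gu167 (28.3 to 858).

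Some pooled calls came mainly from 1 strain. In the C-type lectin list 5 of 36 tested genes (13.9%, against 3.21% of all genes tested) were called higher. The direct test called all 5 different between the mutants, each higher in gu163. The number was 3 without AF16 replicate 1, 3 with AF16 replicate 3 and gu167 replicate 3 both left out and 1 with the mutants as 1 group. Cbr-clec-147 was at 0.403, 0.521 and 0.126 CPM in AF16 replicates 1 to 3, 50.4, 53.6 and 31.7 in gu163 and 7.43, 5.04 and 3.52 in gu167. Both strains were above AF16, and gu163 was above gu167 (log2 fold change 5.35 ± 0.42 (SE), adjusted p = 8.29e-05; direct difference −3.08 ± 0.32 (SE), adjusted p = 6.56e-04). Cbr-clec-86 was at 4.03, 8.52 and 7.05 CPM in AF16 replicates 1 to 3, 78.3, 88.9 and 77.4 in gu163 and 6.68, 5.61 and 5.12 in gu167, so gu167 overlapped AF16 (log2 fold change 1.73 ± 0.22 (SE), adjusted p = 0.00144; direct difference −3.81 ± 0.25 (SE), adjusted p = 2.16e-05). Cbr-clec-78 was at 0.302, 0.608 and 1.01 CPM in AF16 replicates 1 to 3, 86.1, 28.3 and 25.6 in gu163 and 0.501, 0.756 and 0.804 in gu167, again with gu167 at the AF16 level, and its call was lost in 4 of 9 fits with 1 library left out (without AF16 replicates 1, 2 or 3 or gu167 replicate 2; adjusted p up to 0.0842). Cbr-clec-141 held 2 reads in AF16, 87 in gu163 and 15 in gu167.

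Of 118 tested cuticle collagen genes 7 (5.93%, against 3.21% of all genes tested) were called higher. The direct test called 3 of these different between the mutants, and 6 had no overlap with AF16. The list median was 0.80 in gu163, −0.36 in gu167 and −0.08 pooled. Cbr-col-36 was at 3.02, 4.17 and 8.06 CPM in AF16 replicates 1 to 3, 2668, 524 and 337 in gu163 and 10.9, 5.42 and 3.22 in gu167. Its gu167 libraries overlapped AF16, and gu163 replicate 1 was well above the other gu163 libraries (log2 fold change 4.13 ± 0.80 (SE), adjusted p = 0.0175; direct difference −7.49 ± 0.93 (SE), adjusted p = 0.00186). Cbr-col-50 was at 0.302, 0.348 and 0.629 CPM in AF16 replicates 1 to 3, 211, 38.4 and 21.3 in gu163 and 1.42, 2.02 and 0.703 in gu167, with the same library highest (log2 fold change 4.75 ± 1.04 (SE), adjusted p = 0.0333; direct difference −5.95 ± 0.88 (SE), adjusted p = 0.00416). Cbr-col-71 was at 0.705, 0.782 and 0.252 CPM in AF16 replicates 1 to 3, 10.2, 6.96 and 9.34 in gu163 and 1.25, 1.13 and 0.804 in gu167 (log2 fold change 2.33 ± 0.35 (SE), adjusted p = 0.00425; direct difference −3.02 ± 0.33 (SE), adjusted p = 8.93e-04). Its gu167 libraries were just above AF16. With 1 library left out, Cbr-col-36 lost its call in 3 of 9 fits (without AF16 replicates 1, 2 or 3; adjusted p up to 0.0847) and Cbr-col-50 in 5 (those and gu167 replicates 1 or 2; up to 0.132).

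Cbr-col-83 was the collagen gene called in both strains taken singly. It was at 1.91, 1.65 and 0.755 CPM in AF16 replicates 1 to 3, 6.12, 4.06 and 3.87 in gu163 and 4.76, 8.76 and 5.22 in gu167, without overlap (log2 fold change 1.87 ± 0.35 (SE), adjusted p = 0.0161). Without AF16 replicate 2 its adjusted p was 0.0533. The number of collagen genes called was 1 without AF16 replicate 2, 2 without AF16 replicate 1, 3 without AF16 replicate 3, 3 without gu167 replicate 2, 12 without gu163 replicate 3 and 20 with DESeq2. Reads of near-identical collagen or lectin copies may be split between genes, so single members are uncertain.

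Lists of somatic tissues and of larval timing had few pooled calls or none, and in some the strains differed. No member was called among 40 muscle genes (median −0.28), 19 heterochronic genes (−0.16), 66 molting genes (−0.14), 56 hedgehog-related and patched-related genes (−0.27), 78 cytosolic ribosomal protein genes (−0.53), 32 proteasome genes (−0.19), 19 F-box and MATH genes (−0.01), 28 dauer and insulin genes (−0.02), 4 histone genes (−0.33) or 3 yolk protein genes (1.55). At an unadjusted p under 0.05 these held 5 higher and 2 lower muscle genes, 0 and 1 heterochronic, 4 and 3 molting, 4 and 3 hedgehog-related, 0 and 24 ribosomal, 1 and 0 proteasome, 2 and 0 dauer genes, and none of the others. DESeq2 called 2 muscle, 2 hedgehog-related and 1 molting gene higher, and limma-voom called none in these lists. AF16 replicate 3 stood apart in 2 of them. Summed ribosomal genes were at 147320, 178796 and 277411 CPM in AF16 replicates 1 to 3, 114405 to 167264 in gu163 and 112469 to 172901 in gu167. Summed muscle genes were at 30743, 34480 and 60805 CPM in AF16 replicates 1 to 3, 31198 to 43978 in gu163 and 21605 to 42955 in gu167. Strain medians of the hedgehog-related list were 0.37 in gu163 and −0.71 in gu167, and the direct test called 33 of its 56 genes different; in the molting list they were 0.30 and −0.49, with 28 of 66. Without AF16 replicate 2, AF16 replicate 3 or gu163 replicate 2 the muscle list had 1, 2 and 1 called higher. Of 120 neuronal genes (median −0.27) 1 was called higher, Cbr-ins-10 (0.833%), and 1 lower, Cbr-cat-4. All genes tested had 3.21% called higher and 0.280% lower. At an unadjusted p under 0.05 the neuronal list had 2 higher and 14 lower. DESeq2 called 5 of its members lower, and limma-voom 0. Of 26 intestine genes 1 was called higher (3.85%, a share near the 3.21% of all genes tested). It was Cbr-gem-4 (10.8 CPM in AF16, 25.5 in gu163 and 12.1 in gu167), and this call was lost in 13 of 18 alternative fits. Over all genes tested 0.280% were called lower. The mitochondrial ribosomal list had 1 of 62 called lower in the pooled mutants, Cbr-mrpl-9 (96.2 CPM in AF16, 47.3 in gu163 and 86.9 in gu167), and 27 at an unadjusted p under 0.05. Against AF16, 36 were called lower in gu163 and 0 in gu167, with medians of −0.63 and 0.03, and the direct test called 43 different between the mutants. The pooled count was 9 with DESeq2, 4 without gu167 replicate 1 and 0 with any other library left out. Summed molting genes were at 15376 to 16858 CPM in AF16, 15809 to 24358 in gu163 and 8196 to 11529 in gu167; their part in the results above was not tested.

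The genes called lower were fewer, more abundant and closer to the threshold. Their median level was 73.3 CPM in AF16 and 35.1 CPM in the mutants, and their median log2 fold change was −1.02, with −1.21 in gu163 and −0.56 in gu167. The direct test called 16 of the 35 (45.7%), 15 of them farther from AF16 in gu163. Leaving out 1 library at a time gave 11 to 69 genes lower, with fewest without AF16 replicate 1 and most without AF16 replicate 3; every library except gu167 replicate 1, without which there were 51, moved the number by more than 1.5-fold.

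Among genes of at least 5 CPM in AF16 with no overlap, CBG06384 had the largest fall in the weaker strain. It was at 191, 111 and 92.8 CPM in AF16 replicates 1 to 3, 36.5, 27.1 and 18.9 in gu163 and 48.2, 46.8 and 33 in gu167, with each mutant library below each AF16 library (log2 fold change −1.95 ± 0.25 (SE), adjusted p = 0.00153). CBG01434 was at 8.16, 6.52 and 6.29 CPM in AF16 replicates 1 to 3, 2.21, 2.73 and 1.85 in gu163 and 3.09, 2.02 and 2.31 in gu167 (log2 fold change −1.56 ± 0.22 (SE), adjusted p = 0.00269), and CBG18622 was at 29.5, 9.56 and 17.9 CPM in AF16 replicates 1 to 3, 5.21, 6.38 and 4.59 in gu163 and 4.34, 8.88 and 5.53 in gu167 (log2 fold change −1.70 ± 0.33 (SE), adjusted p = 0.0172). These 2 genes likewise did not overlap. The calls of CBG06384 and CBG01434 held with any 1 library left out, and for CBG18622 the fit lacking AF16 replicate 1 gave an adjusted p of 0.0880.

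With a symbol, 5 genes met the same criteria. Cbr-dhs-14, a short-chain dehydrogenase, was at 12, 9.82 and 9.57 CPM in AF16 replicates 1 to 3, 6.25, 6.05 and 4.51 in gu163 and 7.10, 6.24 and 7.54 in gu167 (log2 fold change −0.75 ± 0.17 (SE), adjusted p = 0.0461). Cbr-cat-4, the GTP cyclohydrolase that makes the cofactor for dopamine and serotonin synthesis, was at 122, 113 and 151 CPM in AF16 replicates 1 to 3, 79.9, 66.9 and 75.3 in gu163 and 111, 99.7 and 78.3 in gu167 (log2 fold change −0.61 ± 0.14 (SE), adjusted p = 0.0493). With 1 library left out, Cbr-dhs-14 lost its call in 9 of 9 fits and Cbr-cat-4 in 8 of 9. Without AF16 replicate 1 the adjusted p was 0.159 for Cbr-dhs-14 and 0.0994 for Cbr-cat-4. Both calls were also lost with a minimum count of 30, with the replicate block and with the 6 mutants as 1 group. Cbr-nmur-3, Cbr-hyl-2 and Cbr-nhr-45 are described with their neighbours on X below.

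The direct test found 15 of the genes called lower farther from AF16 in gu163, and the rules for named genes picked Cbr-pgp-9 and Cbr-ddo-1 from them. CBG13822, named after its values were seen, had the smallest adjusted p of the genes called lower. It was at 9.87 CPM in AF16, 0.511 in gu163 and 9.36 in gu167 (log2 fold change −2.14 ± 0.19 (SE), adjusted p = 1.61e-04; direct difference 4.13 ± 0.27 (SE), adjusted p = 2.16e-05). Cbr-pgp-9, a drug efflux pump of the xenobiotic list, was at 147, 243 and 198 CPM in AF16 replicates 1 to 3, 56.1, 74.6 and 68 in gu163 and 151, 158 and 154 in gu167 (log2 fold change −0.95 ± 0.16 (SE), adjusted p = 0.00827; direct difference 1.22 ± 0.19 (SE), adjusted p = 0.00551). Cbr-ddo-1, a D-aspartate oxidase, was at 22.5, 17.5 and 10.7 CPM in AF16 replicates 1 to 3, 3.78, 4.89 and 4.11 in gu163 and 15.4, 18.2 and 16.5 in gu167 (log2 fold change −1.0 ± 0.21 (SE), adjusted p = 0.0303; direct difference 1.96 ± 0.27 (SE), adjusted p = 0.0028). In Cbr-pgp-9 and Cbr-ddo-1 the gu167 libraries overlapped AF16, and gu167 taken singly was not called (adjusted p = 0.412 and 0.981). Cbr-ddo-1 lost its call in 7 of 9 fits with 1 library left out, with an adjusted p of up to 0.129 without AF16 replicate 1. Cbr-pgp-9 kept its call in those fits. With the 6 mutants as 1 group both calls were lost, at an adjusted p of 0.411 for Cbr-pgp-9 and 0.667 for Cbr-ddo-1.

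Of the 35 genes called lower 7 lay in 1 stretch of 40 tested genes on X, from Cbr-lst-2 to Cbr-dnj-14, found after the values were seen and given without a test. Every one of the 40 had a pooled value below 0, with a median of −0.89 and a range from −2.74 to −0.39; among 40 flanking genes, 20 on each side, the median was −0.06 and 0 were called. AF16 replicates 1 and 3 stood above the mutants in this stretch, with medians of 1.09 and 1.28 log2 units over the mutant mean, and AF16 replicate 2 was at 0.10. The 6 mutant libraries had medians between −0.07 and 0.17. In the flanks the AF16 medians were 0.05, 0.05 and 0.06.

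The 3 genes of the stretch that met the criteria for named genes were Cbr-hyl-2, Cbr-nhr-45 and Cbr-nmur-3. Cbr-hyl-2, a ceramide synthase, was at 116, 65 and 146 CPM in AF16 replicates 1 to 3, 59, 45.3 and 49.5 in gu163 and 55.3, 54.8 and 57.3 in gu167 (log2 fold change −1.03 ± 0.21 (SE), adjusted p = 0.0226). Cbr-nhr-45, a nuclear hormone receptor, was at 107, 61.4 and 139 CPM in AF16 replicates 1 to 3, 55.9, 52 and 54.5 in gu163 and 54.4, 58.8 and 53.9 in gu167 (log2 fold change −0.90 ± 0.20 (SE), adjusted p = 0.0384). Cbr-nmur-3, a receptor of the neuromedin U family, was at 6.55, 4.26 and 9.94 CPM in AF16 replicates 1 to 3, 1.30, 1.57 and 2.74 in gu163 and 2.09, 3.34 and 3.72 in gu167 (log2 fold change −1.50 ± 0.32 (SE), adjusted p = 0.0309). In each, AF16 replicate 2 was the lowest wild-type library and the nearest to the mutants. These calls were close to the threshold: with 1 library left out, they were lost in 7 of 9 fits for Cbr-hyl-2, 8 for Cbr-nhr-45 and 7 for Cbr-nmur-3, with adjusted p of up to 0.0844, 0.113 and 0.115. That of Cbr-nhr-45 was also lost with limma-voom and with the replicate block.

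The pooled contrast alone, and neither strain by itself, called Cbr-dpy-23, the AP2 adaptor subunit, and Cbr-dop-1, a dopamine receptor, and both lay in the stretch. Cbr-dpy-23 was at 122.6, 65 and 139 CPM in AF16 replicates 1 to 3, 74, 55.9 and 60.4 in gu163 and 59.9, 46.8 and 48.3 in gu167 (log2 fold change −0.93 ± 0.21 (SE), adjusted p = 0.043), and Cbr-dop-1 was at 19, 7.56 and 17.9 CPM in AF16 replicates 1 to 3, 4.82, 6.21 and 8.30 in gu163 and 5.18, 6.68 and 6.53 in gu167 (log2 fold change −1.23 ± 0.28 (SE), adjusted p = 0.0448). In each gene AF16 replicate 2 overlapped the mutants. Cbr-aqp-8, an aquaporin, and CBG14510 were the other 2. Cbr-dpy-23 and Cbr-dop-1 each lost their call in 8 of 9 fits with 1 library left out. Without AF16 replicate 1 the stretch held 1 of 11 lower calls, without AF16 replicate 2 it held 30 of 60 and without AF16 replicate 3 it held 0 of 69. Leaving out a mutant library also left few: 1 of 19, 0 of 19 and 2 of 15 without gu163 replicates 1, 2 and 3, and 0 of 51, 1 of 12 and 0 of 16 without gu167 replicates 1, 2 and 3.

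**Figure D4:**
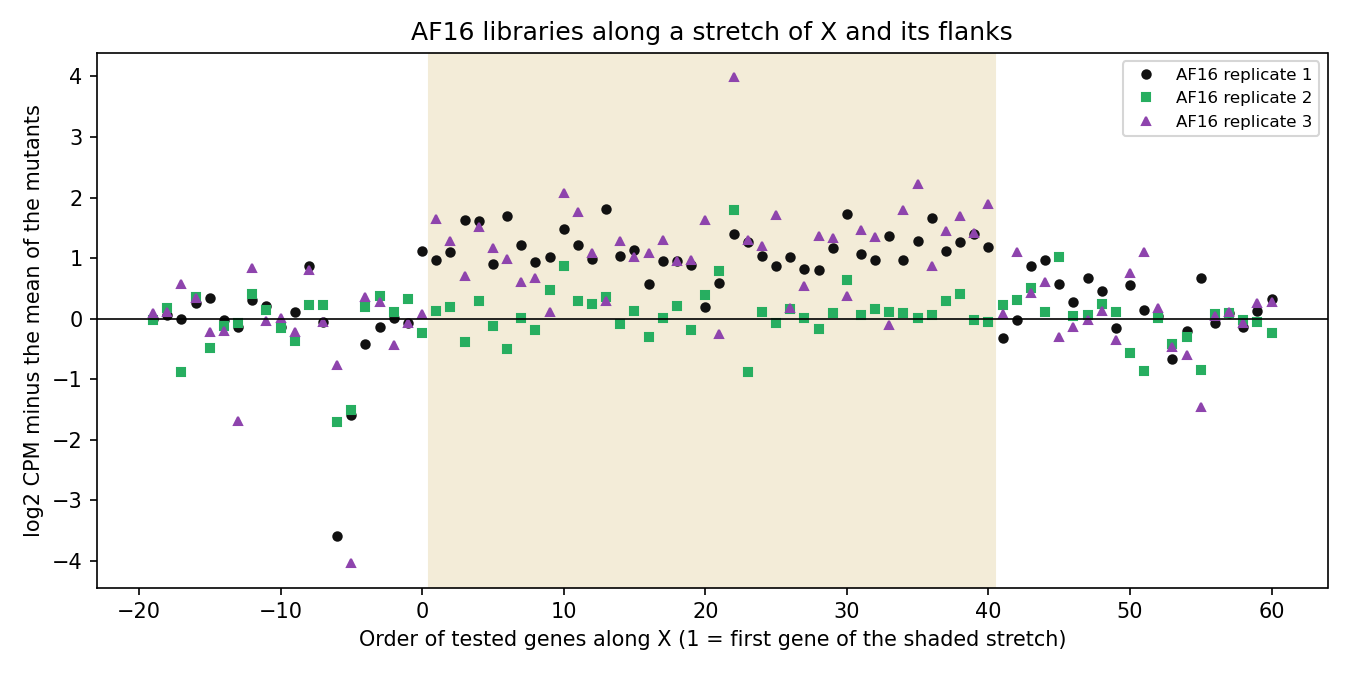
Log2 CPM of each AF16 library minus the mean of the mutants, for 40 tested genes of the X stretch (shaded) and 20 on each side, in their order along the chromosome. AF16 replicates 1 and 3 lie about 1 log2 unit above the mutants within the stretch (medians 1.09 and 1.28), and AF16 replicate 2 lies near 0 (median 0.10).

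Genes called higher were unevenly spread over the chromosomes. Chromosome I held 130 of 2090 tested genes (6.22%), III held 73 of 1969 (3.71%), V 82 of 2373 (3.46%), II 56 of 1924 (2.91%) and IV 48 of 2001 (2.40%). On X 5 of 1976 (0.253%) were called: Cbr-zfp-3, Cbr-clec-86, CBG10235, CBG14775 and CBG27772. In C. elegans the X chromosome carries few genes of the germline, which is background and was not tested here. The share for genes under 1 CPM in AF16 was 27.5% on I (47 of 171) and 0.926% on X (1 of 108). Taken singly, gu163 had 8.42% higher on I and 2.53% on X, and gu167 had 4.83% and 0.152%; both share the AF16 libraries. Under the other settings the share on I was 3.98% to 8.37% and the share on X 0.0989% to 1.11%.

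**Figure D5:**
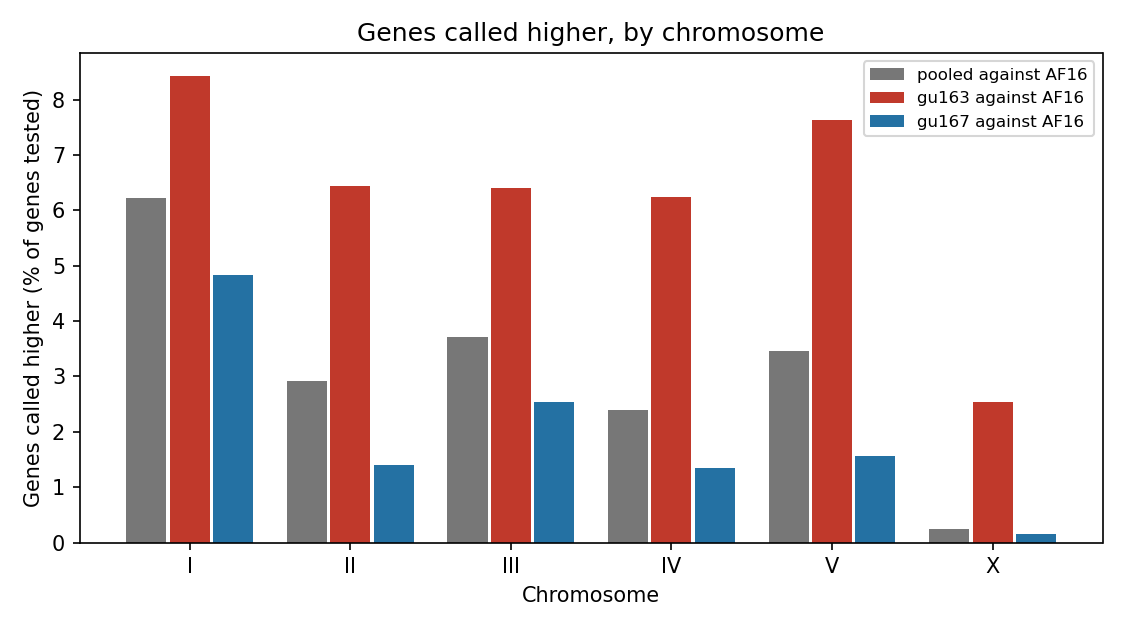
Percent of tested genes called higher than AF16 on each chromosome, for the pooled mutants and for each strain. The pooled bar is highest on I (6.22%) and lowest on X (0.253%).

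Genes called higher often stood beside each other. Of 369 with a tested neighbour in the reference order 133 (36.04%) had an adjacent gene that was also called higher, against 437 of 10571 other genes (4.13%). There were 56 runs, 14 of them of 3 genes or more. On III, CBG13268, CBG13269, CBG25866, Cbr-such-1 and Cbr-spe-6 made a run, on II Cbr-puf-8 lay between CBG13129 and CBG13131, and on I Cbr-htp-3 followed CBG04124 and CBG04125. Genes of a run may share a transcript or overlap, and since the sources used here do not give the strand setting of the counting, their reads may not be independent. Cbr-klp-16.1 and Cbr-klp-16.2, at both ends of a run on I, carry the name of 1 gene in 2 copies, so their reads may be split between them.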

How the data were processed

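The authors deposited raw counts of reads per gene for each of 9 libraries, unnormalized, and the series table matched the single-library files in 9 of 9 columns. Tools listed in the submitters' processing notes are STAR, Trim Galore, FastQC and DESeq, with no versions. Genome build, annotation, counter and strandedness: not given in the sources used here; no coordinates are therefore printed. Names, chromosomes and gene order come from a reference table of assembly CB4, which matched 22727 of 22922 identifiers.

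Counts were fitted with edgeR 4.0.16 (R 4.3.3): TMM factors, filterByExpr at a minimum count of 10, robust quasi-likelihood F tests, 3 strain groups in 1 fit of all 9 libraries, and Benjamini-Hochberg adjustment over 12507 genes. Calls were made at an adjusted p under 0.05. CPM values use TMM-scaled library sizes. Spread is the SD over 3 libraries; with 8294524 to 14095189 counts a library, 3 counts are worth 0.189 to 0.391 CPM. Lists are described by counts and medians. DESeq2 1.42.0, limma-voom (limma 3.58.1), other normalizations, filters, a replicate block and left-out libraries were tried.

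Members and lists were chosen with earlier results of these data known. Named genes were Cbr-lin-3, Cbr-spr-4 and Cbr-htz-1; called genes with a symbol, at least 5 CPM and no overlap with AF16, up to 10 each way, ranked by the weaker strain; up to 3 such genes each way without regard to symbol; up to 3 called members with the smallest adjusted p of each list with at least 3; genes called between the strains; and genes called in neither strain alone. Others were named as called members of a list, or after their values were seen. Replicates differed by more than sampling noise (chi-square per degree of freedom 18.5 to 79.4). The planned search of promoter motifs was not run, and no sequence is printed.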

Additional observations from a re-analysis of the deposited data

Results flagged for a closer look

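For 17 named genes the direct test between the mutants found a difference, so the pooled value averages unlike strains; the values below are gu167 minus gu163 on the log2 scale with adjusted p from edgeR. Higher in gu163 were Cbr-spr-4 (−0.65, adjusted p 0.0264), Cbr-rme-2 (−0.76, adjusted p 0.0457), Cbr-cyk-1 (−0.83, adjusted p 0.0084), Cbr-clec-141 (−2.71, adjusted p 0.00551), Cbr-col-71 (−3.02, adjusted p 8.93e-04), Cbr-clec-147 (−3.08, adjusted p 6.56e-04), Cbr-spe-41 (−3.68, adjusted p 7.80e-04), Cbr-clec-86 (−3.81, adjusted p 2.16e-05), Cbr-col-50 (−5.95, adjusted p 0.00416), Cbr-clec-78 (−6.06, adjusted p 4.49e-04) and Cbr-col-36 (−7.49, adjusted p 0.00186). Higher in gu167 were Cbr-duo-2 (0.81, adjusted p 0.0192), Cbr-syp-1 (1.67, adjusted p 0.0238), Cbr-cpg-4 (1.75, adjusted p 0.0206) and Cbr-fer-1 (2.28, adjusted p 0.00865), which rose in both strains. Cbr-pgp-9 (1.22, adjusted p 0.00551) and Cbr-ddo-1 (1.96, adjusted p 0.0028) were lower in gu163 than in gu167. Of these, Cbr-clec-86 had fold changes against AF16 of opposite sign in the strains, 3.64 in gu163 and −0.17 in gu167.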

How the results depend on the processing

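Against 402 genes called higher, DESeq2 called 625 (400 shared), the 6 mutants as 1 group 217 (217 shared), fits without AF16 replicate 3 and gu167 replicate 3 together 243, a threshold of 0.0005 63, the test in both strains 153, and left-out libraries 261 to 375. Against 35 lower, DESeq2 called the 35 and 91 others (1.3e+02 in all), and the other settings in that order gave 5, 49 (8 shared), 1, 0 and 11 to 69. Remaining settings gave 327 to 425 higher and 24 to 46 lower. Against 1683 genes between the mutants, left-out libraries gave 710 to 2488. Residual correlations between same-numbered replicates ran from −0.29 to 0.25, with both signs. With 3 libraries per strain these values cannot exclude that the numbers pair samples. The replicate block gave 278 genes higher, 18 lower and 1240 between the mutants. The exact tests of Cbr-lin-3, Cbr-spr-4 and Cbr-htz-1 have no paired form here. The cause of these shifts was not tested. Of 53 named genes that were called, 37 kept their call with any library left out and 30 in all 18 alternative fits at the 0.05 threshold, and none reversed there; at a threshold of 0.0005, applied to these genes after their values were seen, 16 of the 53 are called. Counts by chromosome and within the X stretch under each setting were chosen after seeing the data. Low counts limit genes under 1 CPM in AF16, where 3 counts are worth 0.261 to 0.378 CPM.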

Other observations

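Genes of DNA damage signalling and repair, named after their values were seen and therefore without a list count or test of their own, were among the genes called higher. They included the mismatch repair genes Cbr-msh-2 (18.5 CPM in AF16, 54.6 in gu163 and 50.6 in gu167; log2 fold change 1.501 ± 0.20 (SE), adjusted p = 0.00185), Cbr-msh-6 (38.9 CPM in AF16, 87.1 in gu163 and 71.1 in gu167; log2 fold change 1.02 ± 0.15 (SE), adjusted p = 0.00327) and Cbr-mlh-1 (5.04 CPM in AF16, 12.9 in gu163 and 10.1 in gu167; log2 fold change 1.17 ± 0.27 (SE), adjusted p = 0.0423). The damage kinase genes Cbr-atl-1, Cbr-atm-1 and Cbr-chk-1 had pooled log2 fold changes of 1.15, 0.75 and 0.80, with adjusted p of 0.0161, 0.0275 and 0.00914. Cbr-him-6, a RecQ-type helicase, was at 0.777 CPM in AF16, 8.10 in gu163 and 1.81 in gu167, with the direct test at an adjusted p of 0.0022.

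A second gene for a subunit of the anaphase-promoting complex, Cbr-mat-3, also named after its values were seen, was at 2.14 CPM in AF16, 18.6 in gu163 and 15 in gu167 (log2 fold change 2.97 ± 0.19 (SE), adjusted p = 2.32e-05). Summed yolk protein genes were at 308 CPM in gu167 replicate 3 and at 12.5 to 65.3 CPM in the other 8 libraries, and no yolk gene was called.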
